A study of Mus musculus with 8 samples.

Results

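The genes described here are those of the response led by the transcription factor ATF4 to shortage of amino acids and to stress of the endoplasmic reticulum, together with the amino acid transporters that belong to it. They were taken by symbol from a list of 36 genes, and 36 of the 36 were found among the 16573 gene symbols of the authors' deposited table. The RNA came from mouse tibialis anterior with extensor digitorum longus, 3 days after injury with 2 mg/mL notexin, a snake venom toxin that destroys muscle fibres. The groups were labelled Ctrl and Psat1iKO, with n = 4 libraries in each and no further factor. How Psat1 was deleted, in which cells, and the age of the mice are not given in the labels. By the labels the cells are muscle stem cells from a flow cytometry sort, whereas by the design text the RNA was extracted from the muscles.

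Cells slow protein synthesis when a kinase phosphorylates the translation factor eIF2, and under that condition the messenger RNA of ATF4 is translated more, so ATF4 activity is set largely by translation rather than by the amount of its messenger RNA. ATF4 then binds, often with a C/EBP partner, upstream of genes for amino acid synthesis, amino acid import and tRNA charging, and of genes that end the response. Psat1, which encodes the aminotransferase of serine synthesis, is itself an ATF4 target, and myoblasts that lack an amino acid are known to use this response. Whether these genes differed between Psat1iKO and Ctrl is the comparison reported here.

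The sequence that ATF4 and C/EBP proteins bind together has the core TGATGNAA. RefSeq promoters (GRCm38.p6, 250 bases before to 50 after a start) were matched by symbol for 30 of the 36 genes, and Slc1a5, Slc7a5, Ppp1r15b, Eif4ebp1, Slc7a3 and Slc38a1 had no entry. The core was present on either strand in 9 of these 30 genes (30.0%), against 3.07% of 12770 genes of the table with a promoter entry and 4.51% of all 27025 genes with one. Several of these genes are on the list as textbook ATF4 targets, so this share is a description of the list. Each of the 9 matches is printed below, to show the letters that were found and where they lie, with 11 bases on both sides, read 5′ to 3′ on the strand that carries the core, and with the core, which the search fixed, in capitals.
Atf3 (chr1:191183425-191183454, plus strand): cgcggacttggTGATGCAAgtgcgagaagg
Fgf21 (chr7:45615611-45615640, plus strand): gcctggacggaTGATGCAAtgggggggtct
Nupr1 (chr7:126625562-126625591, plus strand): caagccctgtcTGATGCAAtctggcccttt
Herpud1 (chr8:94386306-94386335, minus strand): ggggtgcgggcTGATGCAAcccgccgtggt
Slc1a4 (chr11:20332699-20332728, plus strand): caggctggagaTGATGCAAcgcaggaggca
Pycr1 (chr11:120643833-120643862, minus strand): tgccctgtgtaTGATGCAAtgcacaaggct
Vldlr (chr19:27216809-27216838, minus strand): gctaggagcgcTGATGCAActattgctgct
Asns (chr6:7693214-7693243, minus strand): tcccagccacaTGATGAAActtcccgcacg
Trib3 (chr2:152344028-152344057, plus strand): ccccgcccggcTGATGTAAacctgagctaa

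In 7 of the 9 genes the free base of the core was C, a form found in 23.3% of the 30 genes and in 0.791% of the 12770 genes of the table. The core ended 102 bases before the start in Atf3 and in Nupr1, 104 before it in Herpud1 and 131 before it in Fgf21. In Slc1a4 it spanned the start, and in Trib3 it began 14 bases after the start, inside the transcript. In Vldlr it ended 192 bases before a start that itself lies inside the gene, which begins at 27216480 on chromosome 19. A match is a description of these letters and was not read as a bound site.

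None of the 36 genes passed the test for a difference between the groups by its row of most counts. The table has 36743 rows, since a gene such as Atf4 is split into rows named Atf4 and Atf4.1. The 36 genes had 73 rows, and each gene's row of highest mean count is called its leading row, the others its minor rows. A row is said to be called where its DESeq2 adjusted p is under 0.05. By this threshold, 0 of the 36 leading rows were called higher and 0 lower in Psat1iKO, where 0.193% and 0.145% of all leading rows were. Without adjustment, 0 and 0 of the 36 had a DESeq2 p under 0.05, against 1.86% and 2.23% of all leading rows. Over every row, 1 of the 73 was called higher, the minor row Eif2ak4.3, and 0 were called lower, against 0.332% and 0.324% of all rows. With 1 row called, no share is read against that background. Psat1, the targeted gene, was called lower, and its leading row had a log2 fold change of -0.49 ± 0.0675 (SE) per the authors' deposited table (DESeq2 adjusted p = 1.22e-09). Its mean normalized counts, fitted by group, were 20204 in Ctrl and 14362 in Psat1iKO (fold 0.711, 95% interval 0.649 to 0.779). Psat1 RNA was thus lowered but still counted in Psat1iKO, and the amount of PSAT1 protein was not measured.

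The values were close together. The median log2 fold change of the 36 leading rows was -0.03, with 23 below 0 (63.9%) and 13 above, and it was -0.01 over all 16573 leading rows, of which 51.9% were below 0. Among genes whose leading row had a mean of at least 1000, 70.4% of 27 genes of the response and 60.5% of all 5341 were below 0. Lowest was Pycr1 at -0.59 and highest Vldlr at 0.31 per the authors' deposited table, and these are the genes with the widest intervals. The 95% interval lay inside a 1.5-fold change for 30 of the 36 genes and inside a 2-fold change for 34, against 49.4% and 62.0% of all leading rows. The genes had more counts than most, with a median mean normalized count of 2905 against 312 over all genes. Where the leading row had a mean of at least 1000, the interval was inside 1.5-fold for 27 of 27 genes of the response and for 95.5% of 5341 genes in all. A p that misses the threshold does not show that values are equal, so the intervals are given with each gene below.

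**Figure D1:**
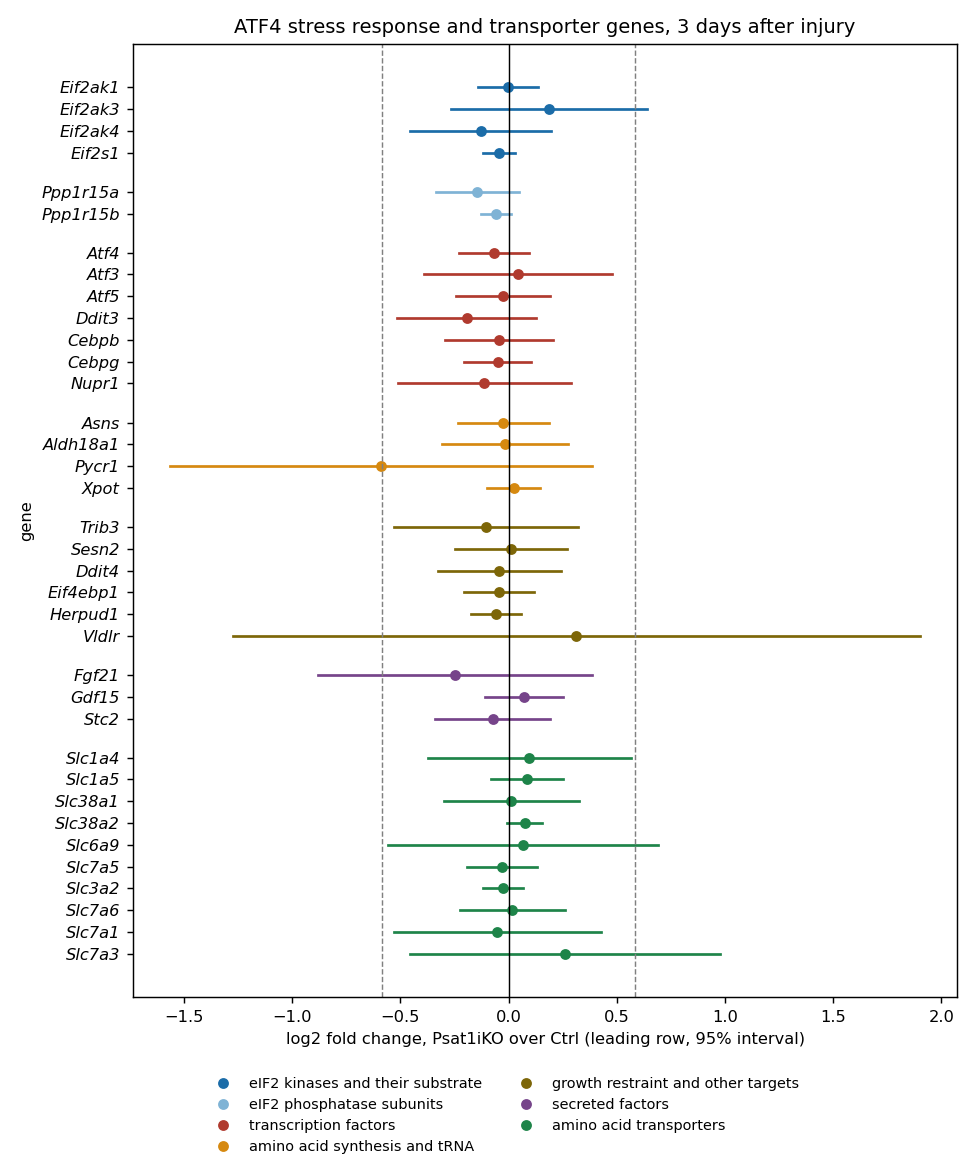
Log2 fold change of Psat1iKO over Ctrl for the leading row of each of the 36 genes, per the authors' deposited table, with the 95% interval from its standard error, coloured by role. Dashed lines mark a 1.5-fold change. The intervals of the 36 genes all cross 0, and Pycr1 and Vldlr have the widest.

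No values per library were analysed here, so each group is given by its fitted mean, which is rebuilt from the authors' mean normalized count over the 8 libraries and their fold change. Whether the libraries of the groups overlap is therefore unknown. The error is the authors' DESeq2 standard error, and the DESeq2 adjusted p of the 36 leading rows ranged from 0.952 for Slc38a2 to 1 per the authors' deposited table. Counts are not divided by transcript length, so levels are compared between groups and not between genes.

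The response starts at the kinases of eIF2. Eif2ak4, on chromosome 2 from 118388583 to 118475234 (GRCm38.p6), encodes GCN2, the kinase that senses uncharged tRNA when amino acids run short. Its leading row Eif2ak4.1 had fitted means of 1124 in Ctrl and 1028 in Psat1iKO, a log2 fold change of -0.13 ± 0.166 per the authors' deposited table (fold 0.914, 95% interval 0.730 to 1.15). Eif2ak3, which encodes PERK, the kinase of the endoplasmic reticulum, had 600.0 and 683, a log2 fold change of 0.19 ± 0.230 per the authors' deposited table (0.833 to 1.56). Eif2ak1, which encodes the haem-regulated kinase HRI, had 1932 and 1927, which is -0.00 ± 0.0711 on the log2 scale per the authors' deposited table. The interval for HRI reached from 0.906 to 1.10 in fold, so it was the most closely measured of these kinases. Eif2s1, the alpha subunit of eIF2 that these kinases phosphorylate, had 9535 and 9245, with a log2 fold change of -0.04 ± 0.0367 per the authors' deposited table (0.922 to 1.02 in fold).

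Eif2ak4 was the gene with the 1 called row. It has 5 rows, and Eif2ak4.3 holds 2.12% of the gene's total. That row rose in Psat1iKO, with a fitted mean of 0.190 in Ctrl and 55.0 in Psat1iKO and a log2 fold change of 8.18 ± 2.10 per the authors' deposited table (DESeq2 adjusted p = 0.0214, log2 interval 4.06 to 12.3). With less than 1 normalized count fitted in Ctrl, the size of this change is loosely set, and how the counts spread over the 4 Psat1iKO libraries is unknown. The call was lost when the same statistic was read against a t distribution with 6 degrees of freedom (adjusted p = 1). Under that reading Eno1b and Eno1 alone kept a call in the whole table, and Psat1 too lost its own (adjusted p = 0.795, unadjusted 0.000339). The other minor rows pointed both ways and were not called. Eif2ak4.5 had 16.5 and 96.0, Eif2ak4.4 had 9.02 and 38.2, and the row named Eif2ak4 had 117 and 114, as fitted means in Ctrl and Psat1iKO. Summed over the 5 rows the gene had 1267 in Ctrl and 1331 in Psat1iKO, which is 0.07 on the log2 scale, with no test. The leading row, with 82.8% of the total, and the row named Eif2ak4, with 8.88%, stood below 0. The rows thus gave the gene no common direction. Rows could not be matched to named isoforms, and the division of reads among rows of 1 gene is uncertain.

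Eif2ak4 also entered the authors' lists of enriched terms. In the authors' deposited table for genes higher in Psat1iKO it was among 9 genes of the term negative regulation of cell differentiation, which holds 748 genes (p = 0.00341, q = 1). It entered through the minor row Eif2ak4.3, with 2.12% of its total, since its leading row was not called. By their titles both lists, for higher and for lower genes, took only called rows, and no other row of the 36 genes was called. That no term held another of the 36 was therefore fixed in advance.

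The phosphatase subunits that reverse the signal were measured closely. Ppp1r15a, which encodes GADD34 and is induced by ATF4 and CHOP to end the response, had 6243 in Ctrl and 5649 in Psat1iKO, a log2 fold change of -0.14 ± 0.0988 per the authors' deposited table (0.791 to 1.03 in fold). Ppp1r15b, its constitutive counterpart CReP, had 7038 and 6756, with -0.06 ± 0.0352 on the log2 scale per the authors' deposited table (0.915 to 1.01). Both lay slightly lower in Psat1iKO, and neither was called.

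Of the transcription factors, 6 of 7 had leading rows below 0 and 0 of 7 were called. Atf4 lies on chromosome 15 from 80255184 to 80257545 (GRCm38.p6). Its leading row had fitted means of 18176 in Ctrl and 17348 in Psat1iKO, a log2 fold change of -0.07 ± 0.0822 per the authors' deposited table (fold 0.954, 95% interval 0.854 to 1.07). Its second row, Atf4.1, with 33.6% of the gene's total, had 9315 and 8671, and the authors' deposited table gives -0.10 ± 0.0462 on the log2 scale, with an unadjusted DESeq2 p of 0.0252 and an adjusted p of 0.629. Both rows of Atf4 therefore stood a little lower in Psat1iKO, by less than the adjusted threshold asks. The amount of ATF4 protein was not measured.

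Partners and relatives of ATF4 were not called either, with wider intervals for Ddit3 and Atf3. Ddit3, which encodes CHOP, the factor that links long stress to cell death, had 862 in Ctrl and 753 in Psat1iKO in its leading row, a log2 fold change of -0.19 ± 0.164 per the authors' deposited table (0.700 to 1.09 in fold). Its minor row, with 8.42% of the total, had 97.1 and 51.4, also without a call. Summed over its rows, Ddit3 had a log2 change of -0.25, with no test. Atf3, a stress-induced repressor whose promoter carries the core shown above, stood on the other side of 0, with 1598 and 1647 and a log2 fold change of 0.04 ± 0.222 per the authors' deposited table. Atf5, which like Atf4 is controlled by translation, had 2929 and 2879, with -0.02 ± 0.110 on the log2 scale per the authors' deposited table. The interval of Atf3 reached from 0.762 to 1.39 in fold and that of Atf5 from 0.846 to 1.14.

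The C/EBP partners and Nupr1 were also not called. Cebpg, a dimer partner of ATF4, had 3949 in Ctrl and 3812 in Psat1iKO, a log2 fold change of -0.05 ± 0.0785 per the authors' deposited table (0.868 to 1.07 in fold). Cebpb had 3 rows with identical values, each with 847 and 821 and a log2 fold change of -0.04 ± 0.128 per the authors' deposited table. Rows of identical values occurred in 23 genes of the table, and Cebpb is the 1 among the 36. Nupr1, a small chromatin-associated stress protein, had 2586 and 2393, with -0.11 ± 0.205 on the log2 scale per the authors' deposited table (0.701 to 1.22 in fold).

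**Figure D2:**
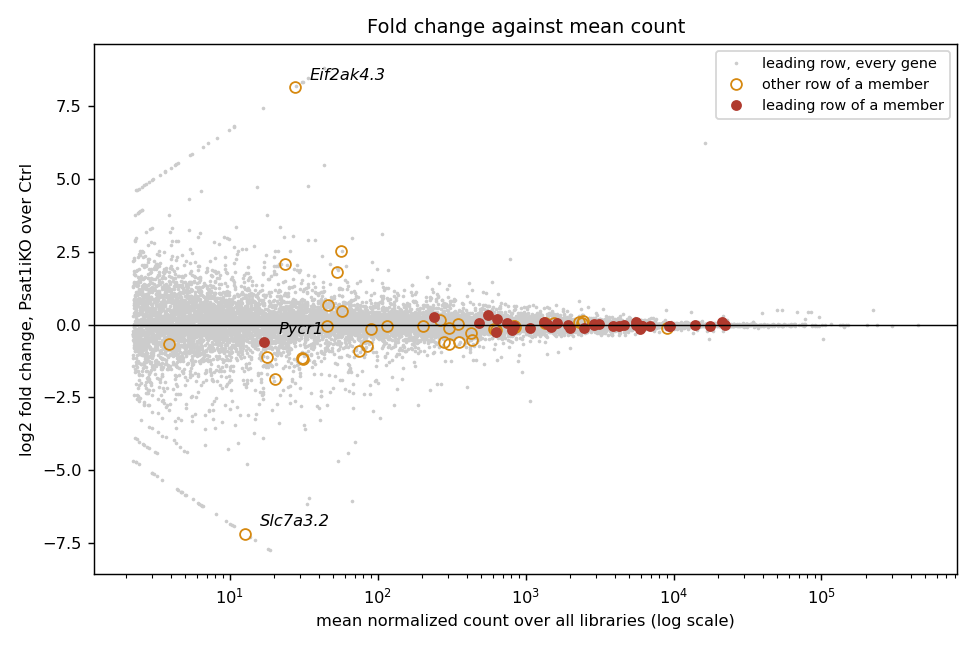
Log2 fold change of Psat1iKO over Ctrl (vertical) against the mean normalized count over all libraries (horizontal, log scale) per the authors' deposited table. Grey points are the leading rows of 16573 genes, filled red points the leading rows of the 36 genes and open points their other 37 rows, of which Eif2ak4.3 and Slc7a3.2 lie far from 0 at mean counts of 27.6 and 12.7.

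Targets that make amino acids or carry tRNA showed no called row. Asns, the enzyme that makes asparagine and a standard reporter of ATF4 activity, had 5610 in Ctrl and 5517 in Psat1iKO, a log2 fold change of -0.02 ± 0.106 per the authors' deposited table (0.851 to 1.14 in fold). Aldh18a1, which makes the first committed intermediate of proline, had 4643 and 4593, with -0.02 ± 0.148 on the log2 scale per the authors' deposited table. Xpot, the exportin of tRNA, had 5592 and 5681, with 0.02 ± 0.0619 per the authors' deposited table. These values were near level, with an interval from 0.934 to 1.10 in fold for Xpot and from 0.809 to 1.21 for Aldh18a1. Pycr1, which completes proline synthesis in mitochondria, had 20.4 and 13.6, a log2 fold change of -0.59 ± 0.498 per the authors' deposited table. With a mean count of 17.0, the lowest of the 36 leading rows, its interval reached from 0.338 to 1.31 in fold, so a large fall could not be told from no change at this depth.

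Targets that restrain growth, clear misfolded proteins or bind lipoproteins were not called either. Trib3, a pseudokinase that binds ATF4 and AKT and damps the response, had 2081 in Ctrl and 1934 in Psat1iKO, a log2 fold change of -0.11 ± 0.218 per the authors' deposited table (0.692 to 1.25 in fold). Sesn2, a leucine sensor that holds back mTORC1, had 2894 and 2918, with 0.01 ± 0.132 on the log2 scale per the authors' deposited table. Ddit4, which encodes REDD1, another restraint on mTORC1, had 4362 and 4232, with -0.04 ± 0.145 per the authors' deposited table. None of these mTORC1 regulators was called, and their intervals lay inside a 1.5-fold change. Eif4ebp1, the translation repressor 4E-BP1, had 9404 and 9115, with a log2 fold change of -0.05 ± 0.0818 per the authors' deposited table. Herpud1, which serves the degradation of proteins from the endoplasmic reticulum, had 6275 and 6022, with -0.06 ± 0.0588 per the authors' deposited table. Vldlr, a lipoprotein receptor induced through PERK and ATF4, had 3 rows, and its leading row, with 46.8% of the total, had 495 and 614. The log2 fold change of that row was 0.31 ± 0.811 per the authors' deposited table, with an interval from 0.413 to 3.74 in fold. Summed over its rows Vldlr had 1178 and 1191, so the leading row's difference was not seen in the gene total.

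Secreted factors of the response, which muscle releases under mitochondrial or amino acid stress, were not called. Fgf21, a metabolic hormone, had 689 in Ctrl and 580 in Psat1iKO, a log2 fold change of -0.25 ± 0.323 per the authors' deposited table (0.542 to 1.31 in fold). Gdf15, a hormone that acts on appetite, had 472 and 495, with 0.07 ± 0.0920 on the log2 scale per the authors' deposited table (0.926 to 1.19). Stc2, a glycoprotein of the stanniocalcin family, had 1512 and 1437, with -0.07 ± 0.136 per the authors' deposited table (0.790 to 1.14). Gdf15 was the most closely measured of these, and Fgf21 was left with room for a fall of more than 1.5-fold.

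Of the amino acid transporters, 7 of 10 leading rows were above 0 and 3 below. Their median log2 fold change was 0.04 and 0 were called. Of the other 26 genes, 20 were below 0. By gene total these counts were 6 of 10 above 0 and 19 of 26 below, since Slc7a6, Eif2ak4, Aldh18a1 and Xpot changed side. Over all leading rows 51.9% were below 0, and 60.5% of those with a mean of at least 1000. The difference between the transporters and the other 26 genes was not tested. Of the 10 transporters, 4 carriers that take up serine and other small neutral amino acids had leading rows above 0. These were Slc1a4, Slc1a5, Slc38a1 and Slc38a2, a grouping that was not planned. The interval of each of the 4 takes in no change, and they were not tested as a group. Other Slc38 genes lay on both sides of 0, such as Slc38a4 at -0.24 and Slc38a7 at 0.95 per the authors' deposited table. Slc1a4, which encodes ASCT1, had fitted means of 1285 in Ctrl and 1373 in Psat1iKO, a log2 fold change of 0.10 ± 0.240 per the authors' deposited table (0.771 to 1.48 in fold). Slc1a5, which encodes ASCT2, the glutamine exchanger that also carries serine, had 5394 and 5723, with 0.09 ± 0.0854 on the log2 scale per the authors' deposited table (0.945 to 1.19). Slc38a1, which encodes SNAT1, had 3095 and 3122, with 0.01 ± 0.160 per the authors' deposited table (0.812 to 1.25). None of these was called. Slc38a2, which encodes SNAT2, the sodium-coupled carrier whose expression rises when amino acids are short, had 20634 and 21718, with a log2 fold change of 0.07 ± 0.0422 per the authors' deposited table. Its interval ran from 0.994 to 1.11 in fold, and its unadjusted DESeq2 p of 0.0797 was the smallest of the 36 leading rows. Slc6a9, the glycine transporter GLYT1, had 730 and 765, with 0.07 ± 0.318 on the log2 scale per the authors' deposited table (0.680 to 1.61 in fold).

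The heterodimeric exchangers share the heavy chain encoded by Slc3a2. Its leading row Slc3a2.1, with 89.2% of the total, had 13994 in Ctrl and 13748 in Psat1iKO, a log2 fold change of -0.03 ± 0.0476 per the authors' deposited table (0.921 to 1.05 in fold). Its minor row Slc3a2, with 2.75% of the total, had 471 and 384, with -0.30 ± 0.138 on the log2 scale and an unadjusted DESeq2 p of 0.0311 (adjusted 0.680) per the authors' deposited table. Slc7a5, the light chain LAT1 that imports leucine in exchange for glutamine, had 22593 and 22117, a log2 fold change of -0.03 ± 0.0823 per the authors' deposited table (0.875 to 1.09). Heavy and light chain of the leucine exchanger were thus close to level. Slc7a6, the light chain y+LAT2, which exchanges arginine for neutral amino acids, had 1381 and 1397, with 0.02 ± 0.124 per the authors' deposited table (0.855 to 1.20).

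The carriers of cationic amino acids had wider intervals. Slc7a1, which encodes the arginine and lysine carrier CAT1 and is a target of ATF4, had 6258 in Ctrl and 6034 in Psat1iKO in its leading row, a log2 fold change of -0.05 ± 0.244 per the authors' deposited table (0.692 to 1.34 in fold). Slc7a3, which encodes CAT3 and lies on chromosome X from 101079146 to 101090452 (GRCm38.p6), had 218 and 260, with 0.26 ± 0.366 per the authors' deposited table (0.728 to 1.97). A minor row, Slc7a3.2, had 25.2 in Ctrl and 0.172 in Psat1iKO on 3.86% of the gene's total. Its log2 fold change was -7.19 ± 2.14 per the authors' deposited table, with a DESeq2 p of 0.000790 and an adjusted p of 0.0896, so it was not called. Summed over 4 rows, Slc7a3 had 321 and 336, which is 0.07 on the log2 scale, with no test.

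**Figure D3:**
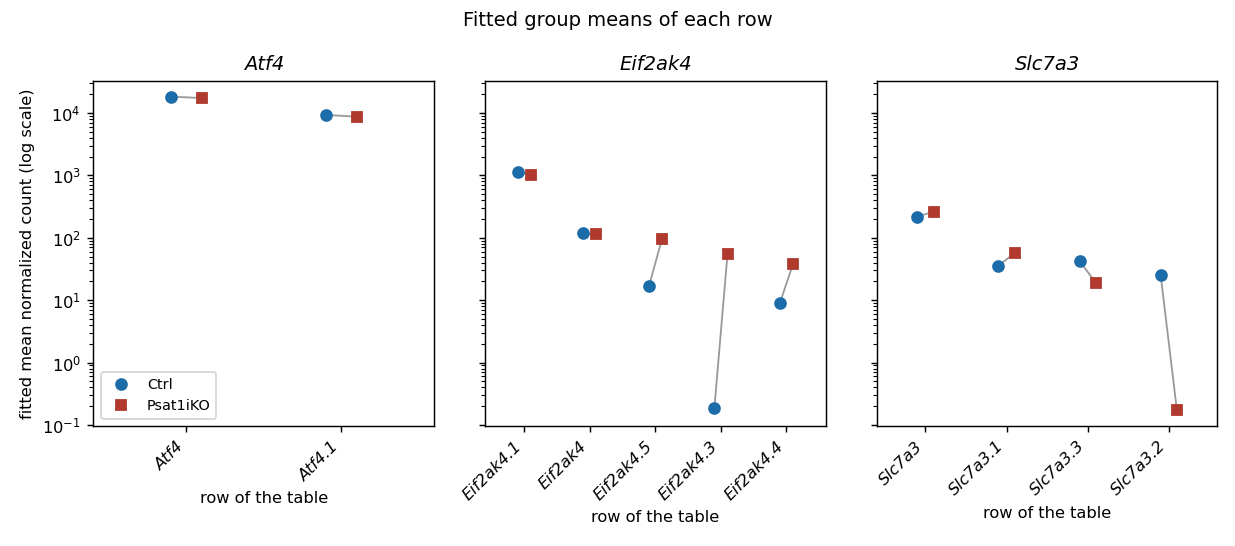
Fitted mean normalized count in Ctrl (circles) and Psat1iKO (squares) for each row of Atf4, Eif2ak4 and Slc7a3, on a log scale, ordered by mean count. The leading rows have folds of 0.954 for Atf4, 0.914 for Eif2ak4 and 1.20 for Slc7a3, with intervals that take in no change. Eif2ak4.3 goes from 0.190 to 55.0 and Slc7a3.2 from 25.2 to 0.172.

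Over all 73 rows, 1 was higher and 3 were lower in Psat1iKO at an unadjusted DESeq2 p under 0.05, against 2.94% and 3.10% of all rows. These were Eif2ak4.3 and, on the lower side, Atf4.1, Slc3a2 and Slc7a3.2. Each was a minor row of its gene.

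Lists of genes that work beside these had medians near 0. Of 30 other ATF4 targets 29 were measured, with a median log2 fold change of -0.03, 21 of 29 below 0, and 1 leading row called, Psat1 itself, which is on that list as a target. The next by p was Yars, a tRNA synthetase, at 0.15 ± 0.0752 per the authors' deposited table and not called. Chac1, which degrades glutathione and is among the genes most strongly induced by ATF4 and CHOP, had a log2 fold change of -0.19 ± 0.120 per the authors' deposited table, and is named after its value was seen. The list named eIF2 and eIF2B core holds subunits of both and also regulators of eIF2, stress relays and other translation factors. In it 0 of 18 leading rows were called in either direction and the median was -0.02. Denr, a factor of ribosome recycling and reinitiation, had -0.15 ± 0.0894 and the adaptor Nck1 -0.10 ± 0.0787 per the authors' deposited table.

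The arm of the unfolded protein response run by ATF6 and XBP1 had 0 of 28 leading rows called, a median of -0.04 and 23 of 28 below 0. The chaperone Hspa5, a standard marker of this arm that is named after its value was seen, had fitted means of 38304 in Ctrl and 37350 in Psat1iKO, with -0.04 ± 0.127 on the log2 scale per the authors' deposited table. A minor row of the chaperone Hyou1, Hyou1.4, fell by 1.06 ± 0.194 on the log2 scale per the authors' deposited table (DESeq2 adjusted p = 2.93e-05). That row had 1140 in Ctrl and 545 in Psat1iKO, on 7.32% of the gene's total. The gene summed over rows had 11585 and 11443, so the total was near level. The call was kept among rows with a mean count of 100 or more (adjusted p = 5.65e-05) and lost against the t distribution (adjusted p = 1).

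Other amino acid transporters, with 39 of 41 measured, had a median of -0.01, 0 leading rows called and 1 minor row called higher. They were less closely measured, with leading rows from -1.56 for Slc7a8 to 2.51 for Slc7a7 per the authors' deposited table, named after their values were seen, at mean counts of 64.0 and 11.3, and with 43.6% of the intervals inside a 1.5-fold change. The called row, Slc38a6.2, had 1.79 in Ctrl and 16.5 in Psat1iKO, on 3.34% of its gene's total, with a log2 fold change of 3.20 ± 0.830 per the authors' deposited table (DESeq2 adjusted p = 0.0232). Its mean count was 9.16, and this call too was lost against the t distribution (adjusted p = 1). Slc43a2, a carrier of large neutral amino acids, had 0.40 ± 0.138 in its leading row per the authors' deposited table (DESeq2 adjusted p = 0.211). Slc6a6, the taurine transporter, had -0.19 ± 0.0697 per the authors' deposited table (DESeq2 adjusted p = 0.290). The mitochondrial serine carrier Sfxn1 and the mitochondrial glycine carrier Slc25a38, named after their values were seen, had log2 fold changes of -0.09 ± 0.0833 and -0.05 ± 0.185 per the authors' deposited table. Among genes of amino acid sensing upstream of mTORC1, 0 of 25 measured were called. Rragc, a GTPase that recruits mTORC1 to lysosomes, had -0.11 ± 0.0391 and Sesn3, a sestrin, -0.14 ± 0.0671 on the log2 scale per the authors' deposited table.

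**Figure D4:**
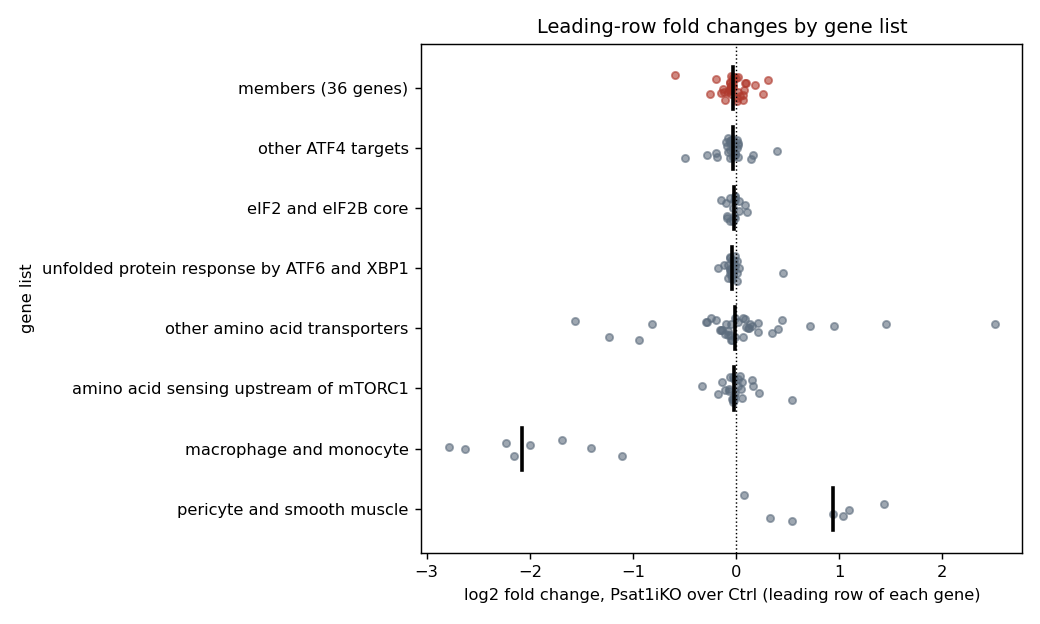
Log2 fold change of Psat1iKO over Ctrl for the leading row of each gene, by gene list, with the median of each list as a black bar. The 36 genes and the lists of related genes have medians between -0.04 and -0.01, while macrophage markers have a median of -2.08 and pericyte markers 0.94, with 0 leading rows called in either marker list. The other marker lists are not drawn. Their medians were -1.33 for neutrophil, -0.80 for endothelial and -0.04 for myofibre markers. They were 0.05 for erythroid, 0.06 for muscle stem cell and myoblast and 0.19 for fibro-adipogenic progenitor markers.

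The labelled cell type was checked on its markers, which had the highest median mean count of the marker lists. The next highest was that of myofibre markers, at 1106. Counts are not divided by transcript length, and whether sorted cells or whole muscle were sequenced was not tested. In total, 10 of 10 muscle stem cell and myoblast markers were measured, with a median mean count of 11264, and their summed fitted means were 160195 in Ctrl and 160913 in Psat1iKO. Myod1, a factor of myoblast commitment, was the 1 of them called, higher in Psat1iKO at 0.16 ± 0.0386 on the log2 scale per the authors' deposited table (DESeq2 adjusted p = 0.00580). Macrophage and monocyte markers had a median of 80.5 over 8 of 10 measured, and 8 of 8 were lower in Psat1iKO, with summed fitted means of 3208 in Ctrl and 660 in Psat1iKO and 0 called. Of these sums Lyz2 alone held 1849 in Ctrl and 299 in Psat1iKO. Pericyte and smooth muscle markers summed to 7459 and 9181, with 7 of 7 above 0, 0 leading rows called and 1 minor row called. That row, Myh11.2 of smooth muscle myosin, holds 19.2% of its gene's total and rose from 3.64 to 102 per the authors' deposited table (DESeq2 adjusted p = 0.0466). Myofibre markers summed to 12036 and 10597, fibro-adipogenic progenitor markers to 13200 and 14074, endothelial markers to 165 and 109, erythroid markers to 126 and 92.3 and neutrophil markers to 12.7 and 8.57. The fibro-adipogenic sums rest mostly on 1 gene, with a mean count of 12417 against a list median of 60.0, and 6 of the 7 markers were above 0. The part of these cell types in the values of the 36 genes was not tested. In bulk RNA fewer cells of a type and less RNA per cell cannot be told apart. Of the 36 genes, Slc3a2 and Vldlr lie 7.18 and 11.3 Mb from Psat1 on chromosome 19, and Sesn2 lies 7.23 Mb from Pax7 on chromosome 4. Their leading rows were not called.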

How the data were processed

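Poly(A) RNA libraries, 4 labelled Ctrl and 4 labelled Psat1iKO, were prepared, per the labels, with NEBNext Ultra II reagents. Per the submitters' processing notes, the tools were DESeq2 (version given as 4.2.0) and HISAT2 (2.2.1), and the build was mm10. The counting program, annotation, strand setting and filters were not given in the sources used here. The authors deposited, for each of 36743 rows, a signal that is the mean normalized count over the libraries, a log2 fold change of Ctrl over Psat1iKO with its standard error, a Wald score, and a p-value with its adjusted p-value. The deposited enrichment tables give log10 of p and q, converted here to p and q. The files hold no values per library, so depth is unknown, the errors are the authors', and p-values measure the spread between libraries, which may be technical since nothing says that they came from separate mice.

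Fold changes were turned to Psat1iKO over Ctrl. Fitted group means were rebuilt assuming equal group sizes. Intervals of 95% use the normal distribution. The Benjamini-Hochberg adjustment recomputed here matched the deposited adjusted p within 1.39e-05 and was tested on simulated data. Python 3.11.15, pandas 2.3.3 and scipy 1.17.1 were used. The genes, lists and rules were chosen with earlier results of these data known. All 36 genes are named, and of each related list the genes called and those of smallest p.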

Additional observations from a re-analysis of the deposited data

How the results depend on the processing

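No paired analysis was possible because the files hold no values per library. For the same reason the planned fits that leave out a library and the count test with another tool were not run. Rows of the 36 genes called higher in Psat1iKO numbered 1 as reported, 0 after adjustment over leading rows, 0 when rows under a mean of 100 were dropped and 0 against a t distribution with 6 degrees of freedom. The first of these alternatives leaves out Eif2ak4.3 because it is a minor row and the second because its mean count is 27.6. Under the first, 0.121% of all leading rows were called higher and 0.103% lower. Under the second, 0.224% of all rows with a mean of at least 100 were called higher and 0.265% lower. Under the t distribution 0.00272% of all rows in each direction were called, namely Eno1b and Eno1, so the calls of Psat1 and Hyou1.4 were lost as well, through the heavier tail of that distribution. Called lower were 0 rows, and 3 at an unadjusted p under 0.05. The median log2 fold change of the 36 genes ranged from -0.03 to -0.02 over gene totals, rows of smallest error, genes above a mean of 100 and centring. For Eif2ak4 the gene total gave 0.07 where the leading row gave -0.13, and for the other 35 genes the total moved the value by less than 1 standard error, with Slc7a6, Xpot and Aldh18a1 crossing 0. Centring shifted values by 0.01 on the log2 scale and left 22 genes below 0. With the t distribution 24 genes had an interval inside 1.5-fold instead of 30. The promoter core was found in 7 genes with C at the free base and in 7 genes before a start. The second count leaves out Slc1a4 and Trib3 and takes Vldlr by its start inside the gene. The standard errors set the limit: for 6 of the 36 genes, Pycr1 and Vldlr most of all, the interval takes in changes of more than 1.5-fold.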
